A study of Mus musculus with 2 samples.

Results

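Immediate early response genes were examined in mouse brown adipose tissue by following 10 listed genes, Fos, Fosb, Jun, Junb, Jund, Egr1, Myc, Atf3, Ier2 and Dusp1, by symbol. Of these 10 genes 9 had a row in the deposited table, each with 1 transcript row out of 14189 rows and 10778 symbols in all, so the value of the row was also the value of the gene. Fosb had no row in the table as used here and is not analysed further. The mice were male C57BL6/J animals aged 8 to 12 weeks, and every animal was fed for 10 days on a high-fat diet (HFD) that drew 60% of its calories from fat. The HFD control library came from mice without SML, and the SML library from mice given SML into the peritoneal cavity, at a dose of 5 mg per kg, during the same diet. Sesaminol, a lignan of sesame, is named in the title of the series, and SML is the abbreviation found in the labels. The time between the last injection and dissection, and the number of animals behind each library, are not stated in the labels. Both libraries share the high-fat diet.

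Immediate early genes are the first genes that a cell transcribes after a growth factor, hormone, nerve signal or stress, since the transcription factors that switch them on are already present and need no new protein. Their messenger RNAs and proteins are short-lived, so a level measured in dissected tissue is that of the recent past. FOS and JUN proteins pair into the AP-1 transcription factor, and in brown fat noradrenaline from sympathetic nerves acts through cyclic AMP, one of the signals known to induce several of these genes.

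Each group was 1 library, so no difference below has a replicate check and no test between conditions was possible. Abundance is given as FPKM, the fragments counted per kilobase of a transcript after scaling to library size. The deposited count columns were scaled, and dividing them by the worth of 1 fragment in each column gave 11995913 fragments for HFD control and 8502352 for SML. Ratios are SML over HFD control in scaled counts, with 95% exact conditional binomial intervals on the fragments. These intervals cover counting error only, so variation among mice and PCR duplicates are outside them. A gene was kept when its mean FPKM over both libraries was at least 1, which held for 9887 genes, and was called higher or lower when its SML value, on log2(FPKM + 1), lay at least 1.5-fold from HFD control.

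Most of the measured genes lay within 1.5-fold of their HFD control level in SML. Of the 8 genes that were kept, 1 was higher (Myc), 0 were lower and 7 (Jun, Junb, Jund, Egr1, Atf3, Ier2 and Dusp1) were neither, while Fos was under the filter. Among all genes kept 5.44% were higher and 5.76% lower by the same rule, which are 538 and 569 genes, or 739 and 457 with totals made equal without skeletal muscle markers. The 8 kept genes are too few to set their count apart from those shares. The median log2(FPKM + 1) difference of the 9 genes with a row was 0.18 (0.22 with the listed 0 of Fos filled from its scaled count), beside 0 over all genes kept, whose quartiles lay at -0.21 and 0.22. The ratio of scaled counts was above 1 for 7 of the 9 genes and below 1 for Junb and Atf3, while 50.4% of all genes kept had a ratio above 1.

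**Figure D1:**
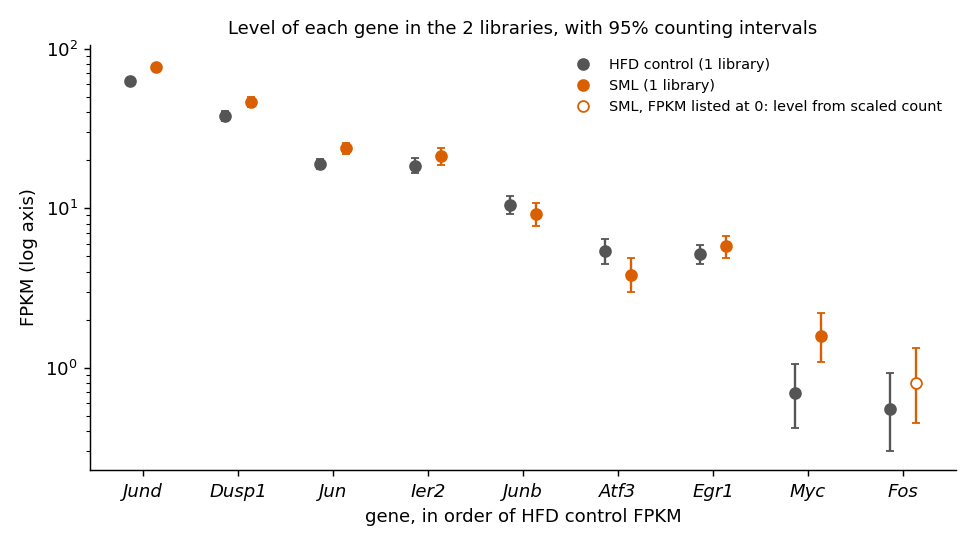
FPKM of 9 immediate early response genes (log axis) in the HFD control library (grey) and the SML library (orange), 1 library each, with bars for 95% Poisson counting intervals. The genes run from Jund at 62.4 and 76.8 FPKM to Fos at 0.55 FPKM in HFD control, and the open point of Fos is the level that its SML scaled count implies, since its SML FPKM is listed at 0.

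The genes covered a wide range of levels on the FPKM scale, which is per length. In the HFD control library the order was Jund, Dusp1, Jun, Ier2, Junb, Atf3, Egr1, Myc and Fos. Counting intervals overlapped between Jun and Ier2, between Atf3 and Egr1, and between Myc and Fos, so these neighbours could not be ranked within counting error. In the SML library Egr1 stood above Atf3 with intervals that did not overlap, and the order was otherwise the same. The median gene kept had an FPKM of 7.99 without SML and 8.11 with it, so Jund, Dusp1, Jun, Ier2 and Junb were above the middle of the transcriptome and Atf3, Egr1, Myc and Fos below it in both libraries.

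Promoters of 3 of these genes are shown because cyclic AMP response elements (CRE), the sites bound by CREB and related factors, are a known route to early gene induction in this tissue. RefSeq windows before the transcript start (build GRCm38.p6, 5′ to 3′ on the gene's strand) were at hand for 7 of the 10 genes, Fos, Fosb, Jun, Junb, Jund, Atf3 and Dusp1, and each was searched over the 250 bases before the start. Capitals mark the CRE-type letters in all 3 sequences and also the TATAAA box in Fos. The windows are chr12:85473640-85473889 on the plus strand for Fos, chr4:95052223-95052472 on the minus strand for Jun and chr17:26508520-26508722 on the minus strand for Dusp1, the last printed, though not searched, without the 47 bases nearest the start, which another annotated transcript includes in an exon.
Fos: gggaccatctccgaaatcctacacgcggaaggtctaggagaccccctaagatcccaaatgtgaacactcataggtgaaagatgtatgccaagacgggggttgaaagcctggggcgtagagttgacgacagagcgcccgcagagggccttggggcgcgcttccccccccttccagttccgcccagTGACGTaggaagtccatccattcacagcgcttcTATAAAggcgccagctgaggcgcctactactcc
Jun: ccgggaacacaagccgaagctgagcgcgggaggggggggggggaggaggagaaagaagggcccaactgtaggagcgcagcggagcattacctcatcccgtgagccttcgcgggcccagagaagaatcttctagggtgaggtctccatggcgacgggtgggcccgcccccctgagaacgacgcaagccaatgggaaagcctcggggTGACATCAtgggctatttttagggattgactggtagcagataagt
Dusp1: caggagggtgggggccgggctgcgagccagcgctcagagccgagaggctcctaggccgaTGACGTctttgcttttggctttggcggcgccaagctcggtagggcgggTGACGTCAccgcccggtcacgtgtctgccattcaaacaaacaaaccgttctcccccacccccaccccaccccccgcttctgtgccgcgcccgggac

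The full palindromic CRE, TGACGTCA, was found in the Dusp1 window, where its first base lies 143 bases before the start, and in 1.55% of all 32851 windows of the same length. The core TGACGT or its reverse complement ACGTCA, which the full element contains, was present in the Fos, Atf3 and Dusp1 windows and in 6.47% of all windows. In Fos it began 66 bases before the start, and TATAAA, which was found on either strand in 12.4% of all windows, began 33 bases before it. The Jun window held the related letters TGACATCA 45 bases before the start, found in either orientation in 2.93% of all windows. The Fosb, Junb and Jund windows held none of the CRE-type letters searched, so the 3 printed windows were taken from those with a match. The CArG box, the site of serum response factor, was in 0 of the 7 windows and in 1.47% of all windows. The AP-1 site TGANTCA was in 0 of 7 and in 6.75%. That AP-1 search took TGANTCA only, so the longer letters TGACATCA of the Jun window are outside it. Sites more than 250 bases before the start were not searched, and Egr1, Myc and Ier2 had no window, so these genes may hold either site elsewhere. Motifs were searched on both strands, and a match describes letters only.

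The 2 genes of the FOS side could hardly be measured. Fos, whose product forms AP-1 only in a pair with a JUN protein, lay on chromosome 12 (85473901 to 85477270, mm10), with 0.55 FPKM in HFD control and an SML FPKM listed at 0. Its scaled counts were 8.92 in HFD control and 12.99 in SML, which correspond to 14 and 15 fragments. Fragments were thus counted where the SML FPKM is listed at 0, and the SML scaled count implied 0.801 FPKM. The ratio of scaled counts was 1.46 (0.655 to 3.25), an interval that includes 1, so the direction of Fos was not detectable at this depth. On the deposited FPKM the log2(FPKM + 1) difference was -0.63, a direction that comes from the listed 0 alone and turns to 0.22 with the implied level. Fos was below the filter, in HFD control as in SML at its implied level.

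Another FOS relative, Fosl2, had 3.72 FPKM in HFD control and 2.94 in SML with a ratio of 0.791 (0.648 to 0.963), and Fosl1 had no row. Among FOS-type genes with a row, Fosl2 was thus the more abundant transcript in both libraries.

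All 3 JUN genes were present in both libraries, with Jund the most abundant and Junb the least. Summed, they came to 91.9 FPKM in HFD control and 109.6 in SML. Jund made up 67.9% and 70.1% of that sum, Jun 20.7% and 21.6%, and Junb 11.4% and 8.36%. These are shares of transcript level, not of protein.

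Jund, the JUN gene known for steady rather than inducible expression, lay on chromosome 8 (70697739 to 70700616) with 62.4 FPKM in HFD control and 76.8 in SML, from 2229 and 2018 fragments. The SML library was the higher one, with a ratio of 1.23 (1.16 to 1.31) and a log2 difference of 0.30, short of the 1.5-fold rule. The log2 difference was 0.10 once a trend with GC content and length across genes was removed. Its GC content stood at percentile 99.8 of the genes kept with a matched transcript, at the edge of that trend. The deposited row began 1210 bases before the annotated GENCODE start, so the length and GC content behind that correction describe only part of the row. The annotated antisense gene Gm11175 shares 877 exonic bases with Jund, and the labels do not say whether counting used strand.

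Jun, the founding member of the JUN family and a target of its own AP-1 complex, lay on chromosome 4 (95049036 to 95052222) with 19.0 FPKM in HFD control and 23.7 in SML, from 759 and 693 fragments. The ratio was 1.24 (1.12 to 1.38), with a log2 difference of 0.30 that nearly equalled that of Jund. The antisense gene Junos shares 232 exonic bases with Jun.

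Junb, an inducible JUN protein that can restrain JUN activity, lay on chromosome 8 (84976909 to 84978748) with 10.5 FPKM in HFD control and 9.16 in SML, from 231 and 148 fragments. The ratio of 0.870 had an interval that includes 1 (0.703 to 1.07). Junb was the 1 JUN gene with a ratio under 1, and its interval lay below those of Jun and Jund.

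**Figure D2:**
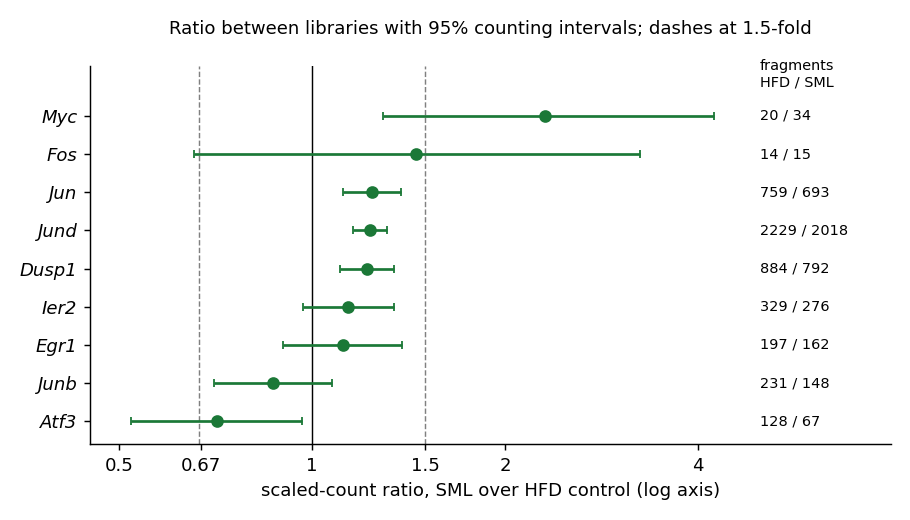
Scaled-count ratio of SML over HFD control (log axis) for 9 genes, with 95% exact conditional binomial intervals and the fragments of each library at the right. The dashed lines mark 1.5-fold in either direction, and Myc, with 20 and 34 fragments, is the gene whose ratio lies furthest from 1.

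Among the other transcription factor genes Myc differed most. Myc, which drives growth and biosynthetic genes together with its partner MAX, lay on chromosome 15 (61985341 to 61990361) with 0.69 FPKM in HFD control and 1.59 in SML. The values rested on 20 and 34 fragments, and the ratio was 2.31 (1.29 to 4.23). The log2(FPKM + 1) difference of 0.62 passed the size rule narrowly, and Myc passed the filter only through its SML level, so it had to differ to be counted at all. With a 2-fold rule or a mean FPKM of at least 5, Myc was no longer among the higher genes. On FPKM it stood at percentile 10.0 of the genes kept in the SML library, a low level in both libraries.

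Atf3, a stress-induced factor of the ATF and CREB family that often represses its targets, lay on chromosome 1 (191170297 to 191183333) with 5.38 FPKM in HFD control and 3.83 in SML, from 128 and 67 fragments. It was the lowest of the 9 genes by ratio, at 0.711 (0.521 to 0.963), and its log2 difference of -0.40 did not reach the size rule.

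Egr1, a zinc-finger factor induced by serum and by MAP kinase signals, lay on chromosome 18 and had 5.14 FPKM in HFD control and 5.75 in SML, from 197 and 162 fragments. Its ratio of 1.12 had an interval that includes 1 (0.902 to 1.38).

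Ier2, an early response gene for a small nuclear protein, lay on chromosome 8 (84661331 to 84662852), 314056 bases from Junb, with 18.5 FPKM in HFD control and 21.1 in SML. From 329 and 276 fragments its ratio was 1.14 (0.968 to 1.34), an interval that includes 1. Ier2 and Junb lay on opposite sides of a ratio of 1, each within counting error of it.

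Dusp1, the phosphatase that switches off MAP kinases as negative feedback, lay on chromosome 17 (26505591 to 26508472) with 37.9 FPKM in HFD control and 46.2 in SML. It was the second most abundant of the genes in both libraries, with 884 and 792 fragments. The ratio was 1.22 (1.10 to 1.34), close to those of Jun and Jund. In all, the counting interval lay above 1 for 4 of the 8 kept genes (Jun, Jund, Myc and Dusp1) and below 1 for 1 (Atf3). The same held for 25.1% and 23.5% of all genes kept. An interval that leaves out 1 was thus common in this comparison, and it does not show a difference between mice.

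**Figure D3:**
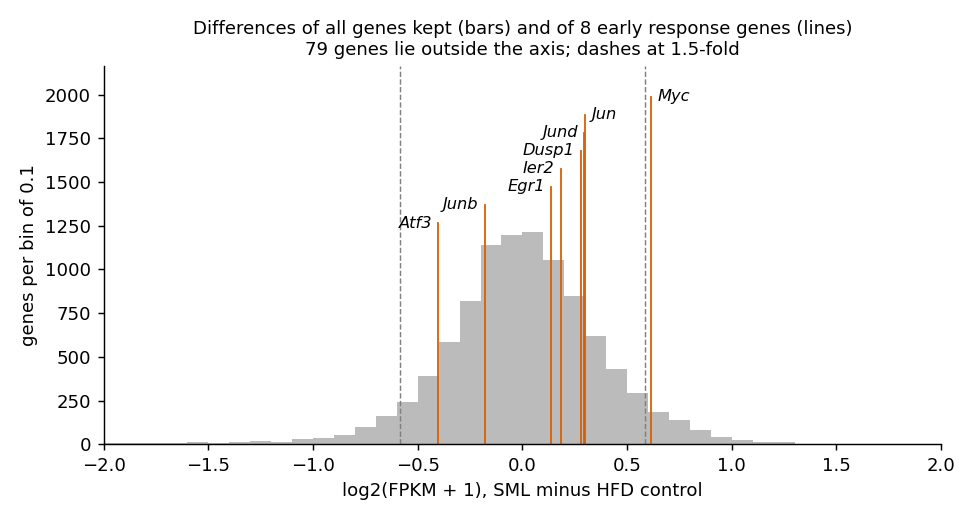
Number of genes kept per bin of 0.1 in log2(FPKM + 1), SML minus HFD control (grey bars), with lines at the values of the 8 kept early response genes and dashes at 1.5-fold. Jund, Jun and Dusp1 sit together between 0.28 and 0.30, Atf3 is lowest at -0.40, and Myc at 0.62 lies just outside the dashed line. Of all genes kept 79 fall outside the plotted axis.

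The genes shared some features that their choice did not use. Of the 9 genes 4 (Jun, Junb, Jund and Ier2) matched an annotated transcript with 1 exon, a structure found for 2.26% of the genes kept that had a matched transcript. The GC content of the matched transcripts ran from 50.9% to 67.1%, and 8 of the 9 were above the median of 51.1% over genes kept. Junb (62.6%), Ier2 (60.9%) and Jund (67.1%) were among the most GC-rich. The median transcript length was 1984 bases, beside 2607 over genes kept.

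GC content bears on the values because the difference between the libraries moved with it. Across 9806 genes kept with a matched transcript the log2 difference was lower at higher GC content (Spearman rho -0.33) and higher at greater length (0.15). This describes genes that all come from the same 2 libraries. In 10 GC classes of nearly equal size the median fell from 0.33 in the lowest class to -0.13 in class 6. From there to the highest class, a range that holds 8 of the 9 genes, medians ran from -0.13 to -0.04 without a further fall. With that trend removed the differences were 0.43 for Jun, 0.38 for Dusp1, 0.32 for Ier2, 0.25 for Egr1 and 0.74 for Myc, and Junb (-0.11) and Atf3 (-0.29) kept their sign. By this measure 1 of the 8 genes was higher and 0 were lower, beside 4.25% and 4.63% of the 9806 genes.

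**Figure D4:**
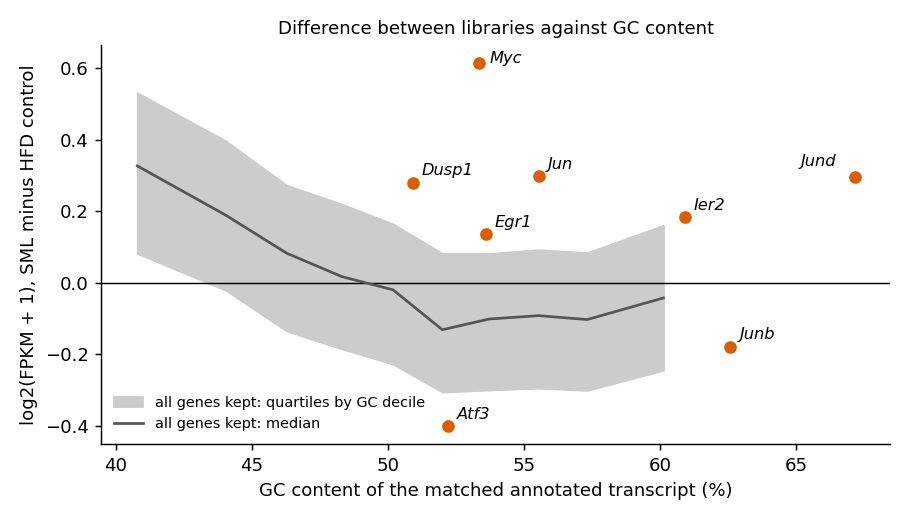
Log2(FPKM + 1) difference, SML minus HFD control, against the GC content of the matched annotated transcript, with the median (line) and quartiles (band) of all genes kept in 10 GC classes of nearly equal size and the 8 kept early response genes as points. The class medians fall from 0.33 at the lowest GC content to -0.13 in class 6 and stand at -0.04 at the highest. Myc, Dusp1, Jun, Jund, Ier2 and Egr1 lie above the band or, beyond its right end, above the last median.

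Other early response genes, taken as a list of 50, moved in both directions. Of the 41 with a row 39 were kept, of which 5 were higher, 4 lower and 30 neither, with a median difference of -0.08. Among all genes kept 5.44% were higher and 5.76% lower, shares that also stand beside each list below. The highest was Klf10, a gene induced by TGF-beta, at 7.31 and 14.7 FPKM (ratio 2.01, 1.72 to 2.35). The lowest was Rgs2, a regulator that dampens G protein signals, at 46.3 and 17.5 FPKM (ratio 0.378, 0.341 to 0.418). The other higher genes were Gadd45g, Bhlhe40, Cebpb and Crem, and the other lower ones Nr4a1, Klf2 and Gadd45a, all named after their values were seen. After correction for GC content and length Cebpb came to 0.57, just short of the rule, and Pim1 to 0.62, past it. The list then again had 5 higher and 4 lower genes, beside 4.25% and 4.63% of all genes with a matched transcript. Gadd45b, Gadd45a and Klf4 lay nearest to Fos in log2(FPKM + 1) difference over the 2 libraries, at -0.58, -0.76 and -0.49, a likeness that rests on the listed 0 of Fos. The 14 and 15 fragments of Fos are too few to name genes of like pattern by its ratio.

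**Figure D5:**
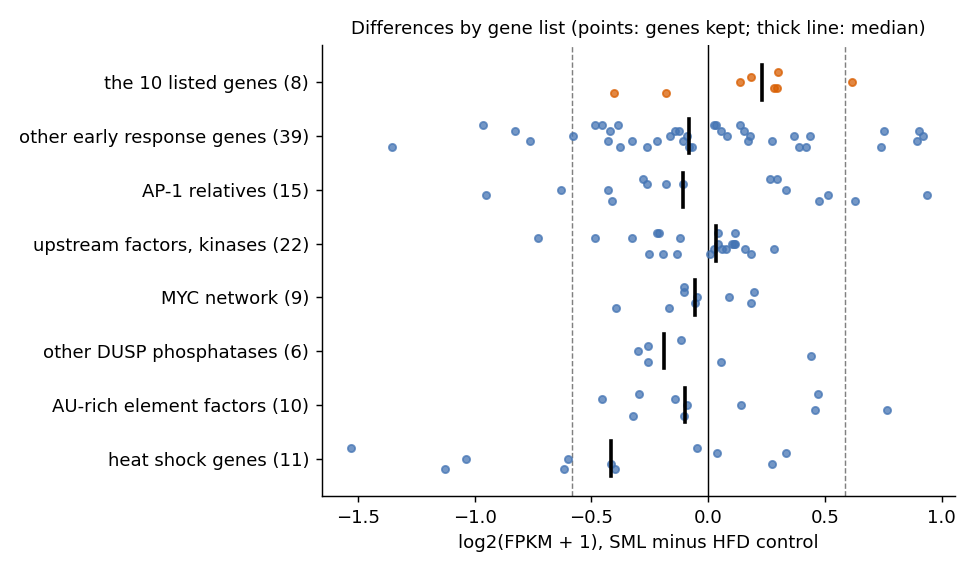
Log2(FPKM + 1) difference, SML minus HFD control, of each kept gene in 8 gene lists, with the number of kept genes in brackets, a thick line for the median and dashes at 1.5-fold. The immediate early response genes lie between -0.40 and 0.62, while other early response genes spread from -1.35 to 0.92 and the heat shock genes have the lowest median at -0.42.

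Relatives that pair or compete with FOS and JUN were mixed as well. Of 17 relatives of AP-1 15 were kept, with 2 higher, 2 lower and a median of -0.11, or 1 and 1 after correction for GC content and length. The lowest, Batf2, an interferon-responsive relative, had 3.61 FPKM in HFD control and 1.38 in SML (ratio 0.381, 0.204 to 0.673). Fosl2 and Maff are in this list and in the list of other early response genes.

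Of 26 factors and kinases that induce early genes 22 were kept, with 0 higher, 1 lower and a median of 0.03, beside 5.44% and 5.76% of all genes kept. With the highest transcript row per symbol 2 were higher, beside 713 of 9849 genes, and 22 genes are too few to set that count apart. The lower one was Mkl1, a coactivator of serum response factor, at 2.48 and 1.10 FPKM (ratio 0.439, 0.302 to 0.626), and the highest was Prkacb, a catalytic subunit of protein kinase A, with a difference of 0.28. Srf itself, which is also in the list of other early response genes, had 5.90 and 6.03 FPKM.

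The MYC network had 9 kept genes of 13, with 0 higher, 0 lower and a median of -0.06. Max, the obligate partner of MYC, was its lowest at 16.4 and 12.2 FPKM (ratio 0.742, 0.625 to 0.878), and Mlxipl its highest at a difference of 0.20. The other dual-specificity MAP kinase phosphatases had 6 kept genes of 9, with 0 past the rule and a median of -0.19, from Dusp4 at -0.30 to Dusp16 at 0.44. Factors that bind AU-rich elements or degrade such messages had 10 kept genes of 13, with 1 higher, 0 lower and a median of -0.10. Cnot7, a deadenylase subunit, was the highest at 5.94 and 10.8 FPKM (ratio 1.84, 1.52 to 2.23), no longer past the rule at 0.44 after that correction. Hnrnpd was the lowest at a difference of -0.45, or -0.75 and past the rule when corrected. Its ratio of scaled counts was nearer to 1, at 0.854 (0.735 to 0.991), and on scaled counts 0 genes of this list were lower.

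Markers of cell types in the depot differed beside these genes. Summed over the marker lists, brown adipocyte genes summed to 67543 FPKM without SML and 56092 with it, a sum carried by a few very abundant genes such as Cox8b, Fabp4 and Ucp1. By count 1 of the 10 was higher and 0 were lower, beside 5.44% and 5.76% of all genes kept, and their median difference was -0.08. Skeletal muscle markers came to 4862 and 451 FPKM, and all 18 kept of 20 listed were lower. Macrophage markers (446 and 282 FPKM, 5 of 10 kept lower and 1 higher), endothelial markers (308 and 205 FPKM, 3 of 11 lower), erythroid markers (1974 and 1012 FPKM, 4 of 4 lower) and fibroblast markers (525 and 376 FPKM, 1 of 9 lower) had lower sums in the SML library, while T, B and NK cell markers summed to 13.4 and 11.9 FPKM. None of these markers with a row was listed at 0 in both libraries. Most of the fall in the fibroblast sum came from Ly6a (251 and 122 FPKM), while Lum, Col1a1 and Col3a1 had more FPKM in SML, short of the rule. Corrected for GC content and length, 2 macrophage and 2 erythroid markers were lower. Early response genes are transcribed in many cell types, and the part of cell composition in their values was not tested. In such bulk tissue, fewer cells of a type and less RNA per cell cannot be told apart.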

How the data were processed

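Poly(A) RNA from brown adipose tissue was sequenced from TruSeq libraries, with 1 µg of RNA at an integrity number of 8.0, per the labels' protocols. The authors deposited 1 table of assembled transcripts with FPKM and a scaled count signal for each of 2 libraries. The submitters' processing notes name CASAVA 1.8, Cufflinks and build mm10, and the aligner, annotation release and filters are not stated there. The deposited scaled counts moved in steps of 0.638 (HFD control) and 0.866 (SML) at low values. Taken as 1 fragment each, these made 91.2% of 525 and 91.1% of 764 low values whole within 0.1. FPKM was listed at 0 beside a count above 0 in 274 HFD control and 1443 SML rows.

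Rows were summed by symbol and compared as log2(FPKM + 1), with Python 3.11.15 and scipy 1.17.1. GC content, length and exon number came from the GENCODE M21 transcript whose ends lay nearest the deposited row. The trend was a cubic least-squares fit over genes kept. Deposited starts were read as counted from 0 and are printed 1 higher. Named genes were all 10 members, the highest and lowest kept gene of each list and the 3 early genes nearest Fos. One gene that this rule would name is not reported here. The size rule and interval were tried on simulated fragments drawn with counting error alone, which cannot show how they hold across mice. The members and lists were chosen with earlier results of these data known. Alternatives covered the pseudocount, filter, scaling, row choice, count columns, trend and threshold, and, added after seeing the data, listed zeros filled from the scaled count.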

Additional observations from a re-analysis of the deposited data

How the results depend on the processing

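No paired analysis was possible because each group had 1 library, and no library could be left out. Jun, Jund, Egr1, Ier2, Dusp1 and Myc stayed above 0 and Junb and Atf3 below 0 in log2 difference. The 5 alternatives that could move their values were the pseudocount, scaled counts, both other totals, and the GC and length trend. A pseudocount cannot change a sign, and scaled counts largely repeat the FPKM of a gene with 1 row. Both other totals raised the SML values, so they could not bring a gene above 0 below it. For genes above 0, only the GC and length trend was thus free to change the sign. Of the 3 alternatives that could move Fos, 2 that used its scaled count put it above 0. The Fos difference was -2.70 with a pseudocount of 0.1, and removing the GC and length trend brought that of Jund to 0.10. Without a filter 1 member was higher and 1 lower (Fos, through its listed 0), with 571 higher and 1117 lower genes in all. At a mean FPKM of at least 5, 0 of 6 members were higher, with 319 higher and 306 lower genes in all. A 2-fold rule gave 0 higher members, 66 higher and 194 lower genes. A pseudocount of 0.1 gave 847 higher and 833 lower genes, and the scaled counts 883 and 820. Depth limits Fos and Myc most, at 14 to 34 fragments, and leaves their ratios with wide counting intervals.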

Other observations

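Heat shock genes encode chaperones, many of them made under protein-damaging stress. All 11 listed genes were kept, and 5 of them were lower in SML and 0 higher, beside 5.76% and 5.44% of all genes kept. Their median difference was -0.42. With totals equal outside the 50 highest genes 3 were lower, beside 490 of 9899 genes. Hspa1a had 3.83 FPKM in HFD control and 0.67 in SML (ratio 0.174, 0.0982 to 0.289), and the near-identical copy Hspa1b had 2.3 and 0.51 FPKM, so reads may be split between them. Hspb1, a small chaperone that is also abundant in muscle, had 383 and 186 FPKM (ratio 0.484, 0.454 to 0.515), beside skeletal muscle markers that summed to 4862 and 451 FPKM. The list also holds genes that are active without stress, among them Hspa8, which had 639 and 773 FPKM, and Hspd1, the mitochondrial chaperonin, was the highest of the list at a difference of 0.33. The part of muscle RNA in these values was not tested.

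Members of the same gene family lay on opposite sides. Gadd45g, a growth arrest gene, stood at 38.7 and 73.2 FPKM (ratio 1.88, 1.67 to 2.13), while Gadd45a stood at 2.53 and 1.08 FPKM (0.427, 0.196 to 0.860, from 35 and 11 fragments). Klf10 was higher and Klf2, a factor prominent in endothelium, lower at 48.4 and 26.9 FPKM (0.554, 0.494 to 0.620). Endothelial markers summed to 308 and 205 FPKM, with 3 of 11 lower and 0 higher. The part of endothelial RNA in the Klf2 value was not tested. The Gadd45 and Klf genes here were picked after their values were seen, and 1 library per group gives no test of the contrasts.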
